A study of Mus musculus with 22 samples.

Results

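The active histone mark H3K27ac and the repressive histone mark H3K9me3 were compared within a single line of mouse induced pluripotent stem (iPS) cells, the OSKM line. A region of a mark was a stretch of chromosomes 1 to 19 covered by peaks, kept only where both libraries of that mark had a peak in it. This gave 60792 H3K27ac regions and 50946 H3K9me3 regions. Over all lines of the series, 133159 regions had an H3K27ac peak and 96973 an H3K9me3 peak in at least 1 library. The data come from 4 of the 22 samples of the series, with 2 libraries per mark. The cells were derived from embryonic fibroblasts (MEFs) of strain C57BL/6 that had been transduced with Oct4, Sox2, Klf4 and c-Myc. They held the reporter Oct4-MerCreMer; Tomato/GFP, were given 100 nM 4-hydroxytamoxifen to switch it on, and were grown with serum and leukemia inhibitory factor (LIF) on gelatin. Cells were fixed in 1.5% formaldehyde for chromatin immunoprecipitation with sequencing. The other iPS lines of the series, C2 and C3, received Sox2, Klf4 and c-Myc with 3 zinc finger artificial transcription factors in place of Oct4 (ZFATF1, ZFATF2 and ZFATF3 in C2, and ZFATF1, ZFATF2 and ZFATF4 in C3). The labels do not say whether replicates came from separate cultures or clones, so the spread between them may be technical.

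H3K27ac is acetylation of lysine 27 of histone H3, laid down by the acetyltransferases p300 and CBP at active promoters and enhancers. H3K9me3 is trimethylation of lysine 9 of the same histone, written by Setdb1 and the Suv39h enzymes and bound by the HP1 proteins. In pluripotent mouse cells it is known for covering endogenous retroviruses, clusters of zinc finger genes and the methylated allele of imprinting control regions.

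The immunoprecipitated libraries kept 28947967 to 36620590 tags after removal of duplicates, with a redundant share of 0.12 and 0.15 for H3K27ac and 0.36 and 0.42 for H3K9me3. Each was compared by the authors with 1 of 2 input libraries, of 53827575 and 42080148 tags, that also served the C2 line. H3K27ac peaks numbered 84282 and 85539 in replicates 1 and 2, and H3K9me3 peaks 79650 and 81500. Between 73.7% and 83.4% of the peaks of a library were overlapped by a peak of the other replicate. The label of pluripotent cells was checked on marker genes. All 8 markers of pluripotent cells had an H3K27ac region within 2500 bp, against 1 of 10 markers of embryonic fibroblasts. In a longer list of 30 embryonic fibroblast genes, 13 (43.3%) had one, and 53.3% or 56.7% had an H3K27ac peak when replicate 2 or replicate 1 was left out. The fibroblast gene among the 10 markers was Fn1, which encodes fibronectin; Col1a1, Col1a2, Col3a1, Thy1, Twist1, Twist2, Postn, Prrx1 and S100a4 had none. Of 7 markers of primitive endoderm, 5 had an H3K27ac region. Bases of a mark on a gene and bases per kb, here and below, take in flanks of 2500 bp on each side of the gene. H3K27ac covered 20.7 bp per kb on the endoderm markers, 46.5 on the fibroblast markers and 625 on the pluripotency markers, against 52.5 over all genes. Gata4 and Gata6, which define primitive endoderm, had H3K27ac at 5.45 and 4.84 and at 4.01 and 6.15 in replicates 1 and 2 (fold enrichment, explained below). Foxa2 and Sox17 had none. The part of such cells in the results was not tested.

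The promoters below show the sequences that the marks lay on, and were chosen after the values were seen. They are the 250 bases before the gene start, 5′ to 3′ along the gene, from RefSeq on GRCm38.p6, with each CpG dinucleotide in capitals. Nanog (chr6:122707239-122707488, plus strand), a homeobox factor of naive pluripotency, and Tdgf1 (chr9:110946159-110946408, minus strand), a Nodal co-receptor, lay under H3K27ac without H3K9me3. Nnat (chr2:157559828-157560077, plus strand) and Plagl1 (chr10:13090582-13090831, plus strand), both imprinted genes, lay under H3K9me3 without H3K27ac. So did Brdt (chr5:107330944-107331193, plus strand), a bromodomain protein of the testis, and Cyp2a5 (chr7:26835089-26835338, plus strand), a liver cytochrome P450.
Nanog: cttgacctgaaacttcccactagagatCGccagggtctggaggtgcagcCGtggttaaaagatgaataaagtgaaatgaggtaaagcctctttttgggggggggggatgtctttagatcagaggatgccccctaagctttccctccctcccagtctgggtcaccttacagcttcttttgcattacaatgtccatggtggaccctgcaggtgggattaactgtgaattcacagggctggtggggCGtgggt
Tdgf1: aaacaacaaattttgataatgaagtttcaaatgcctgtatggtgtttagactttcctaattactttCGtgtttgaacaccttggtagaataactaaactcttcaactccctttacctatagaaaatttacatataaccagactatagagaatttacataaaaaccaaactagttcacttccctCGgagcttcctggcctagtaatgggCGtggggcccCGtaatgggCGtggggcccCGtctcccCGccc
Nnat: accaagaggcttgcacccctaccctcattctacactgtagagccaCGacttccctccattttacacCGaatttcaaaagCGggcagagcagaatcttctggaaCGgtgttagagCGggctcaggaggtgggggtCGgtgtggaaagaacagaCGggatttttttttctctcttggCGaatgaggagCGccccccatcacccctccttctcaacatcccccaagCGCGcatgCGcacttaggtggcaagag
Plagl1: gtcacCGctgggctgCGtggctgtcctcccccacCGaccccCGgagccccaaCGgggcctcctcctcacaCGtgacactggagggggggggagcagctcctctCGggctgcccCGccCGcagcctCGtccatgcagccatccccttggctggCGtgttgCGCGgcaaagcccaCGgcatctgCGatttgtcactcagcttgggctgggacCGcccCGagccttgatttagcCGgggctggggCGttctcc
Brdt: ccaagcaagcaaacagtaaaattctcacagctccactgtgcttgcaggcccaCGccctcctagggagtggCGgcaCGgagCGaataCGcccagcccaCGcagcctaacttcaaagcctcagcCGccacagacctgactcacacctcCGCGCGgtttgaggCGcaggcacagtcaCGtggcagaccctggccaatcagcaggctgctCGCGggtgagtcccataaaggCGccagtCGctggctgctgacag
Cyp2a5: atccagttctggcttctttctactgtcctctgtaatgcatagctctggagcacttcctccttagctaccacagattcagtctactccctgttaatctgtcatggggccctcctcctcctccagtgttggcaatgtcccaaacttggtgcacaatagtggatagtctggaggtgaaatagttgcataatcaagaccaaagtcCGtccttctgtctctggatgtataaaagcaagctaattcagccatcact

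The runs of the 2 pluripotency genes held 3 CpG in Nanog and 7 in Tdgf1. Those of Nnat, Plagl1 and Brdt held 12, 19 and 16, and that of Cyp2a5 held 1. The fold enrichment of a peak is the number of fragments at its highest point over the local background, as the authors' peak caller gave it. Where a region held several peaks, the highest is given. The H3K27ac region over Nanog (chr6:122700709-122711236) had a fold enrichment of 15.9 in replicate 1 and 20.2 in replicate 2, and the region over the Tdgf1 promoter (chr9:110943538-110947396) had 18.1 and 15.9. The H3K9me3 region over Nnat (chr2:157556222-157561419) had 10.0 and 12.4, that over Plagl1 (chr10:13087826-13093784) 10.1 and 7.92, that over Brdt (chr5:107329558-107331564) 4.57 and 6.68, and that over Cyp2a5 (chr7:26834745-26836096) 8.82 and 5.46. The promoters under H3K9me3 thus held both CpG-rich and CpG-poor sequence.

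Groups of microRNA genes lay under either mark, chosen here after their values were seen. Within 2500 bp, 32.1% of 919 microRNA hairpins had H3K27ac and 3.81% had H3K9me3. The miR-290 cluster, the most abundant microRNAs of mouse embryonic stem cells, lay under a single H3K27ac region of 3586 bp (chr7:3217761-3221346). Its fold enrichment was 12.1 in replicate 1 and 10.8 in replicate 2, and all 8 listed hairpins were within it. No H3K9me3 region lay within 2500 bp of them. The imprinted Dlk1-Dio3 locus on chromosome 12 holds 57 listed hairpins (chr12:109563692-109747960), of which 48 had neither mark, 9 had H3K9me3 and 0 had H3K27ac within 2500 bp. The 7 neighbouring hairpins from Mir431 to Mir136, chosen because H3K9me3 covered them, are described here. An H3K9me3 region of 4012 bp (chr12:109591475-109595486), with a fold enrichment of 13.02 and 12.3, held 6 of these 7. The other, Mir431, lay under a region of 1237 bp (chr12:109589893-109591129) with 5.46 and 4.58, and no H3K27ac region was within 2500 bp of any of them. Mature sequences are given 5′ to 3′ from RefSeq on GRCm38.p6, with the seed (bases 2 to 8, which pair with targets) in capitals. The first 4 are 3p arms of the miR-290 cluster, and the last 5 come from the 7 hairpins on chromosome 12.
miR-290a-3p: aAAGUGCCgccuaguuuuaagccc
miR-291b-3p: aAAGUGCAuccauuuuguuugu
miR-294-3p: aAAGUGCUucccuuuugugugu
miR-295-3p: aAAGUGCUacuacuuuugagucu
miR-431-5p: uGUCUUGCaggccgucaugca
miR-433-3p: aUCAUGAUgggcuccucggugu
miR-127-3p: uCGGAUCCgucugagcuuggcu
miR-434-3p: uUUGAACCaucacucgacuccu
miR-136-5p: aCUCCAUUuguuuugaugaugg
The 15 mature sequences listed for the 8 miR-290 hairpins held 11 different seeds. Of the 15, 7 shared their seed with another listed member, such as miR-294-3p and miR-295-3p. The listing holds products of both strands and may not hold every member of the cluster, so these counts describe the listing. The 13 mature sequences listed for the chromosome 12 hairpins held 13 different seeds. The other microRNA cluster known from pluripotent cells, Mir302b, Mir302c, Mir302a, Mir302d and Mir367 on chromosome 3, had a region of neither mark. A single H3K27ac library had a peak near it, with a fold enrichment of 4.69.

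The marks differed most in their distance to protein-coding genes. In H3K27ac replicates 1 and 2, 63.1% and 62.3% of peaks lay within 2500 bp of the extent of a gene, against 24.2% and 23.7% in H3K9me3 replicates 1 and 2. Of the length of the chromosomes, 43.1% lay that close to a gene, so H3K27ac was above and H3K9me3 below that share in every library. The difference was 38.8 percentage points (exact permutation test over libraries, two-sided p = 0.333, the smallest that 2 against 2 libraries allow). More than 50000 bp from any gene lay 12.3% and 12.8% of H3K27ac peaks and 44.2% and 45.3% of H3K9me3 peaks, a difference of -32.2 points (H3K27ac minus H3K9me3; the same exact p = 0.333). The length at that distance was 36.3%. In both measures the libraries of a mark lay close together and the marks did not overlap. With all annotated genes in place of protein-coding ones, the difference far from genes was -16.5 points.

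**Figure D1:**
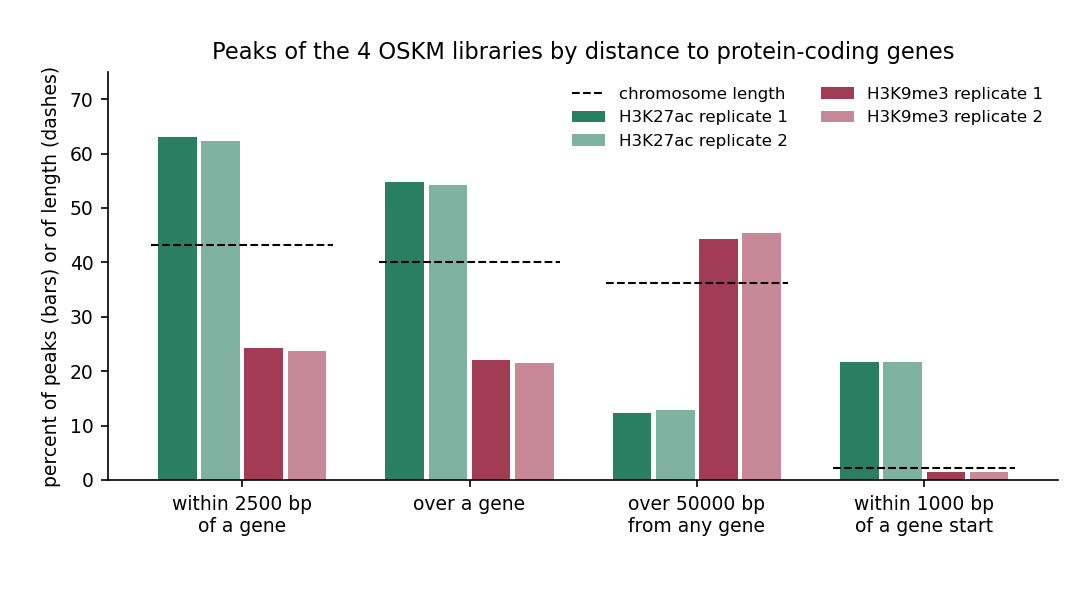
Bars give the percent of peaks in each of the 4 OSKM libraries (H3K27ac green, H3K9me3 red, replicate 2 paler) by distance to protein-coding genes, and dashes the percent of chromosome length in that class. H3K27ac stood at 62.3% or more within 2500 bp of a gene, and H3K9me3 at 44.2% or more beyond 50000 bp.

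RefSeq gene starts were listed on 18 of the 19 chromosomes, and for 16457 of 20665 protein-coding genes. Of 59025 H3K27ac regions there, 15276 (25.9%) lay within 1000 bp of a start, and of 49254 H3K9me3 regions 848 (1.72%). The length within 1000 bp of a start was 2.24%. The median distance from a region to the nearest listed start was 10964 bp for H3K27ac and 51239 bp for H3K9me3. Over the body of a gene lay 55.7% of H3K27ac and 22.0% of H3K9me3 regions, with 39.99% of the length there.

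Along the chromosomes, the length under H3K27ac was larger where genes were many, and that under H3K9me3 was not. In windows of 1000000 bp with no protein-coding gene (n = 251), the median length under H3K27ac was 2.99 kb, and in windows with over 25 genes (n = 163) it was 88.1 kb. For H3K9me3 the medians were 38.8 and 28.6 kb. Across 2451 windows, gene number correlated with H3K27ac at a Spearman rho of 0.72 and with H3K9me3 at -0.05, and the marks with each other at -0.08. These values describe windows that share libraries and base composition, and neighbouring windows are not independent. Chromosome 11, rich in genes, had the most H3K27ac regions per Mb (39.7) and the fewest H3K9me3 regions (14.8).

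The 5 windows with most of each mark were listed with their genes. For H3K27ac the first was chr11:117000001-118000000, with 14 genes, 297 kb covered and 22.2 kb under H3K9me3. The fourth, chr12:86000001-87000000, had 11 genes, 1 of them the pluripotency factor Esrrb, and 238 kb under H3K27ac and 8.65 kb under H3K9me3. For H3K9me3 the first was chr4:147000001-148000000, with 231 kb under H3K9me3 and 98.5 kb under H3K27ac. Its 16 genes included Rex2, Zfp978, Zfp991, Zfp988, Zfp982, Zfp985, Zfp979, Zfp534, Zfp984 and Zfp933. Of the other 4 windows, 3 were neighbours on chromosome 12 (chr12:18000001-21000000) with mostly predicted genes. The remaining one, chr5:104000001-105000000, held Zfp33b and Zfp951 and had 205 kb under H3K9me3 and 74.9 kb under H3K27ac.

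Widths depended on whether peaks or regions were measured. The median peak width was 593 and 583 bp in the H3K27ac libraries and 473 and 489 bp in the H3K9me3 libraries, a difference of 107 bp (exact permutation test, two-sided p = 0.333). With the stricter threshold of a -log10 q-value of at least 5 the difference was 68.5 bp. The fragment length used by the peak caller was 242 and 236 bp in the H3K27ac libraries and 196 and 194 bp in the H3K9me3 libraries. Its part in the peak widths was not tested. Over regions, which join overlapping peaks of both libraries, the order turned, with medians of 931 bp for H3K27ac and 1071 bp for H3K9me3. The marks separated in the tail: 3241 H3K9me3 regions (6.36%) were 5000 bp or wider, holding 28.3% of the bases under the mark, against 1448 H3K27ac regions (2.38%) with 13.03% of the bases. In total the marks covered much the same length, 81.5 Mb (3.31%) for H3K27ac and 86.8 Mb (3.53%) for H3K9me3. On the 18 chromosomes with listed starts, wide regions of both marks had higher fold enrichment in the lower of the 2 libraries, with a median of 10.7 for H3K27ac and 11.6 for H3K9me3 at 5000 bp or more, against 3.74 and 3.83 under 1000 bp.

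**Figure D2:**
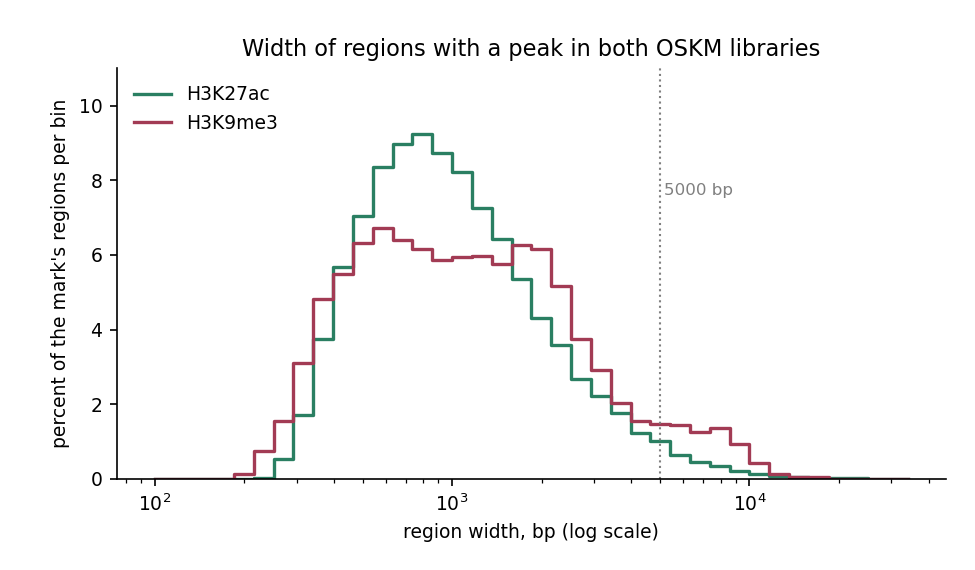
The percent of a mark's regions in each width bin (x axis in bp, log scale) is shown for H3K27ac (green) and H3K9me3 (red), with a dotted line at 5000 bp. H3K27ac has a single peak of widths just under its median of 931 bp, and H3K9me3 a flatter top and a shoulder beyond the dotted line, where 6.36% of its regions lie.

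The H3K27ac regions were ranked by strength and by width. By fold enrichment in the lower library, the first was at Brd2 (chr17:34119507-34124398), a bromodomain reader of acetylated histones, with 24.9 and 25.04 in replicates 1 and 2. Ddx6, an RNA helicase of processing bodies, followed with 23.1 and 29.6, and Hnrnpd, an RNA-binding protein, with 22.3 and 21.9. Zc3h4, Cdyl2, Slc35e2, Rfx2 and Tmem39a completed the first 8 at 19.9 to 24.98. Another region, second in strength of all, lay more than 2500 bp from any protein-coding gene. It spanned 26855 bp (chr4:55456534-55483388), with 24.5 and 24.9, and the nearest protein-coding gene was Klf4, a reprogramming factor, 43749 bp away. The widest at a gene were at Etnk1 (28410 bp) and Etl4 (28400 bp), followed by Elovl6, Eps15l1, Bcat2 with Hsd17b14, and Epha4 at 20415 to 24580 bp.

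The strongest H3K9me3 regions within 2500 bp of a gene all overlapped a gene and were wide. They lay in Hmox2 (chr16:4739400-4751721; 22.7 and 22.1), a haem oxygenase, and in Ttc27, Cntnap2, Usp32, Pag1, LOC115489542, Slc4a4 and Gfod1, at 20.2 to 24.4 and with widths of 8185 to 16333 bp. None of these 8 regions overlapped H3K27ac. The strongest of all, 10567 bp on chr16:76167870-76178436 with 23.3 and 25.2, was 108967 bp from Nrip1, the nearest protein-coding gene. The widest within 2500 bp of a gene were at Zfp951 (23100 bp), Cep57l1, Vmn2r35, Rnf223, Flg2 and Gm42346, the last at 18112 bp. The widest of all spanned 36543 bp (chr10:83446475-83483017; 19.4 and 19.4) and lay 4430 bp from Aldh1l2.

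Promoter sequence differed with the mark over it. The 300 bases from 250 before to 50 after a start were taken for 31365 RefSeq promoters on 18 chromosomes. H3K27ac alone overlapped 12608 (40.2%), H3K9me3 alone 403 (1.28%), both marks 46 (0.147%) and neither 18308. Median GC content was 61.0% under H3K27ac alone, 48.3% under H3K9me3 alone, 54.2% under both and 48.3% under neither. The CpG observed over expected ratio, which is near 1 where CpG is not depleted, had medians of 0.76, 0.30, 0.51 and 0.23. With promoters in 5 equal groups by GC content, H3K27ac was on 6.55% of the lowest and 73.9% of the highest group, and H3K9me3 on 1.82% and 0.159%. H3K9me3 was most frequent in the second group, at 2.41%, and was on 1.85% of the third.

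Short motifs were searched on both strands of the same windows. The GC box GGGCGG was in 36.0% of all promoters, in 61.5% of those under H3K27ac alone and in 10.9% of those under H3K9me3 alone. The octamer ATGCAAAT, the site read by Oct4 and its relatives, was in 1.75% of all promoters, 1.33% under H3K27ac alone and 5.71% under H3K9me3 alone. CCAAT was in 37.3%, 36.7% and 48.4%, the TATA motif TATAAA in 13.6%, 6.30% and 16.1%, and the palindrome CACGTG in 7.14%, 10.8% and 2.73%. Promoters under neither mark had the same median GC content as those under H3K9me3 alone, 48.3%. Of them, 18.96% held the GC box, 1.95% the octamer, 37.45% CCAAT, 18.6% TATAAA and 4.725% CACGTG. The part of base composition in these shares was not tested. These are matches of letters and do not show binding.

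Most protein-coding genes had H3K27ac nearby, and fewer had H3K9me3. Of 20665 genes, 68.7% had an H3K27ac region within 2500 bp and 25.6% an H3K9me3 region. H3K27ac alone was at 10285 genes (49.8%), H3K9me3 alone at 1380 (6.68%), both at 3907 (18.9%) and neither at 5093 (24.6%). Genes with both marks were long, with a median of 69.2 kb against 17.5 kb over all genes. H3K9me3 was at 8.77% of genes under 2 kb and at 89.6% of genes of 200 kb or more. The H3K9me3 bases per kb of gene with its flanks stayed between 12.8 and 19.2 in all 5 length classes. Starts do not depend on gene length in this way. Within 1000 bp of a start, 58.9% of 16457 genes had H3K27ac, 2.29% H3K9me3 and 0.960% both.

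Gene lists were described by how many members had each mark, beside those shares over all genes. All 33 genes of naive and core pluripotency had H3K27ac, and it covered 337 bp per kb of gene with its flanks against 52.5 over all genes. At the 20 with a listed start, all had H3K27ac there. Nanog had fold enrichments of 15.9 and 20.2 and 4281 and 4877 reads in replicates 1 and 2, where reads are those of the authors' region table in units of the lowest value of a library. The table's values were normalized, so such reads need not be counts of sequenced fragments. Tdgf1 had 18.1 and 20.0 with 7075 and 7433 reads. Esrrb, an orphan nuclear receptor, had 22 H3K27ac regions covering 66041 bp, with a highest fold enrichment of 16.01 and 21.2. Zfp42 had 14.9 and 16.4 and Utf1 15.4 and 15.5.

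H3K9me3 was at 5 of the 33 pluripotency genes. They were Dppa3, Esrrb, Jarid2, Mybl2 and Pou5f1, and each also had H3K27ac. That share, 15.2%, was 27.3% without H3K9me3 replicate 2 and also with a window of 10000 bp. The share of all genes rose at these settings too. Without replicate 2, 7.39% of all genes had H3K9me3 alone and 21.35% had both marks. With a window of 10000 bp these shares were 11.02% and 29.2%. The list thus stayed below all genes at both settings. At Pou5f1, which encodes Oct4, an H3K27ac region (chr17:35502380-35510857; 6.64 and 5.41) enclosed 3 H3K9me3 regions. These were chr17:35505998-35506575 (4.12 and 4.16), chr17:35508986-35509601 (3.00 and 1.99) and chr17:35509900-35510672 (3.97 and 2.12), and they held 221 to 623 reads. All lay within the extent of the gene or at its start. Oct4 was also transduced, and reads of the transduced copy and of the exons of the endogenous gene cannot be told apart. Of the 16 primed and formative genes, 12 had H3K27ac, among them Otx2 at 14.6 and 14.0, and 2 had H3K9me3, Etv5 and Lef1.

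Most lists of other lineages had H3K27ac at a smaller share of genes than all genes, but endoderm (72.2%) and germline (71.0%) did not. At a -log10 q-value of at least 5, endoderm was at 55.6%. Of all genes, 50.2% then had H3K27ac alone and 17.03% had both marks. H3K27ac covered 31.0 bp per kb on the endoderm list, against 52.5 over all genes. Of 30 embryonic fibroblast genes, 13 had H3K27ac and 7 had H3K9me3, and 15 had neither. Lum, a matrix proteoglycan, had an H3K9me3 region at 6.13 and 5.83, and Pdgfrb, the receptor of platelet-derived growth factor, at 4.41 and 3.28. Both genes had an H3K27ac peak in replicate 1 only, at 4.78 and 3.75, and so no H3K27ac region. Zeb1, a factor of the mesenchymal state, had 9 H3K9me3 regions covering 13022 bp at up to 10.5 and 8.34, beside 2 H3K27ac regions. H3K27ac was at 13 of 18 endoderm, 10 of 20 neuroectoderm, 12 of 20 mesoderm and 6 of 11 trophoblast genes, and H3K9me3 at 2, 1, 0 and 1. Of 14 endothelial and blood genes, 6 had H3K27ac and 4 had H3K9me3. Leaving out 1 library, so that a peak in the other library of the mark sufficed, moved some of these shares by 1.5 times or more. Without H3K27ac replicate 1, H3K27ac was at 64.3% of endothelial and blood genes in place of 42.9%. Without H3K9me3 replicate 1, H3K9me3 was at 10.0% of mesoderm genes in place of 0 and at 18.2% of trophoblast genes in place of 9.09%, and without replicate 2 at 16.7% of endoderm genes in place of 11.1%. Of 39 Hox genes, 14 had H3K27ac and 3 H3K9me3 (Hoxd3, Hoxd12 and Hoxd13), with 22 at neither. Without H3K27ac replicate 1 the H3K27ac share of Hox genes was 59.0% in place of 35.9%, and Hoxd3 had an H3K27ac peak in replicate 2, at 4.41.

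Imprinted genes, expressed from a single parental copy, carried both marks most often of the lists other than the protocadherins. Of 27 genes, 20 had H3K27ac, 16 had H3K9me3 and 13 had both. At the starts of the 22 with a listed start, 15 had H3K27ac and 10 had H3K9me3, against the 2.29% of all genes given above. H3K9me3 covered 52.0 bp per kb against 18.0 over all genes. Inpp5f had H3K9me3 at 17.4 and 11.7, Igf2 at 14.5 and 7.501, and Nnat, Plagl1 and Nap1l5 had H3K9me3 without an H3K27ac region. At the shared start of Peg3 and Usp29, an H3K9me3 region had 5.26 and 4.36, and an H3K27ac region of 508 bp at the Usp29 promoter had 3.66 and 3.24. The Snrpn promoter also lay under both, H3K9me3 at 7.19 and 4.68 and H3K27ac at 6.97 and 7.49. At Mest, a hydrolase gene expressed from the paternal copy, H3K27ac (10.7 and 6.12) and H3K9me3 (5.77 and 4.43) lay over the same promoter. Reads of the parental copies were not separated, so marks on different copies and marks on the same copy cannot be told apart.

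Of 31 germline genes, 22 had H3K27ac, 12 had H3K9me3 and 9 had both. Mov10l1, a helicase of the piRNA pathway, had 4 H3K9me3 regions covering 10991 bp with 13.5 and 22.3, and an H3K27ac region of 3.81 and 4.67. Stk31 had 14.8 and 9.42 for H3K9me3, and Asz1, another protein of the piRNA pathway, had H3K9me3 alone at 10.9 and 11.04. Dazl, Stra8 and Dnmt3l had regions of H3K27ac alone, Dnmt3l at 14.6 and 14.5. Of 13 genes of the 2-cell-like state, 3 had H3K9me3 (Duxf3, Tcstv3 and Zfp352) and 1, Eif1a, had H3K27ac. Of 23 genes of H3K9 methylation and heterochromatin, 22 had H3K27ac and 8 had H3K9me3. Setdb1, which writes H3K9me3, had H3K27ac alone at 7.64 and 5.84, and Trim28, which recruits it, at 11.4 and 14.4.

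Gene families taken by symbol fell at opposite ends. All 64 replication-dependent histone genes and 75 of 76 cytosolic ribosomal protein genes had H3K27ac, and 7 and 1 had H3K9me3. For ribosomal protein genes the H3K9me3 share of 1.32% was 2.63% and 3.95% without H3K9me3 replicate 1 and replicate 2. The ribosomal gene with H3K9me3 in both was Rpl39l, with 3 H3K9me3 regions at 7.91 and 9.38. Vomeronasal receptors, the pheromone receptors, had H3K27ac at 18 and H3K9me3 at 97 of 352 genes. Olfactory receptors had them at 29 and 106 of 1104 (9.60% with H3K9me3), cytochrome P450 genes at 31 and 48 of 98, collagens at 17 and 24 of 42 and defensins at 6 and 10 of 72. Beside the 25.6% of all genes, the H3K9me3 share was close to it in vomeronasal receptors (27.6%) and below it in olfactory receptors and in defensins (13.9%). Genes of these 3 families are short, with median lengths of 0.96, 0.95 and 2.09 kb, and H3K9me3 was at 8.77% of all genes under 2 kb. The shares moved with the window. With windows of 0 and 10000 bp, 5.30% and 11.02% of all genes had H3K9me3 alone, and 16.2% and 29.2% had both marks. At the same windows, H3K9me3 was at 2.17% and 44.2% of olfactory receptor genes and 18.8% and 68.2% of vomeronasal receptor genes. For defensins it was at 6.94% and 58.3%. With the 2-cell-like genes, these 6 of the 24 lists had more members with H3K9me3 than with H3K27ac. Collagens turned when H3K27ac replicate 1 was left out, with 59.5% under H3K27ac and 57.1% under H3K9me3. Per kb of gene with its flanks, H3K9me3 covered 50.0 bp on vomeronasal receptors, 50.3 on cytochrome P450 genes and 13.4 on collagens, which have a median length of 110 kb. Cyp2c39 had 13 H3K9me3 regions covering 27.1 kb and Vmn2r35 a single region of 19.5 kb at 14.1 and 19.6. At Vmn2r35 the region table held 48 and 39 reads, few for a region of that fold enrichment, and the reason was not tested. The 57 clustered protocadherins, of which 33 had H3K27ac and 31 H3K9me3, share overlapping extents on chromosome 18 and are not separate observations.

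**Figure D3:**
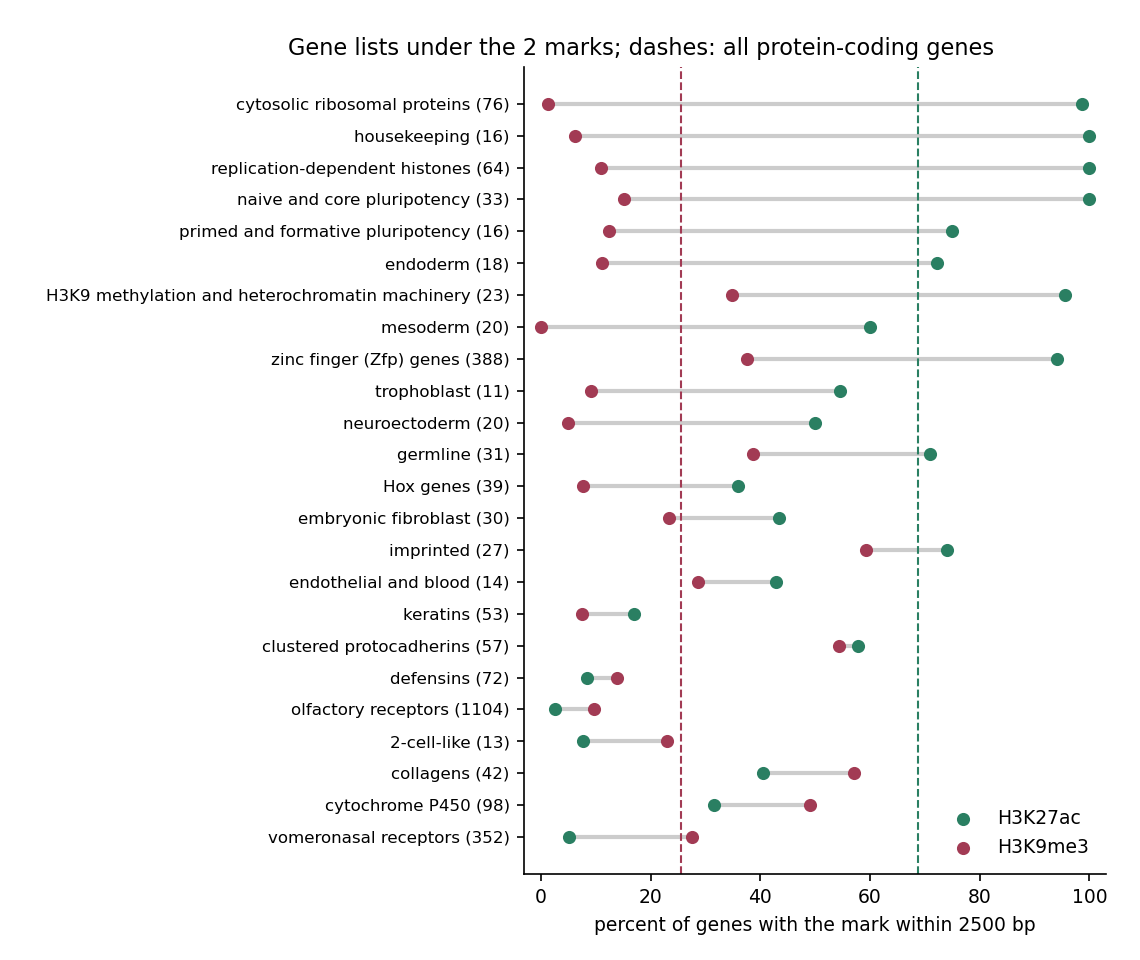
Each row is a gene list with its number of genes, and points give the percent of its genes with H3K27ac (green) and H3K9me3 (red) within 2500 bp. Dashed lines are the shares over all protein-coding genes, 68.7% and 25.6%, and 6 lists at the bottom have the red point to the right of the green.

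Zinc finger genes named Zfp, many of which encode repressors of endogenous retroviruses, had both marks more often than all genes. Along the genes, H3K27ac lay mostly at the start, and H3K9me3 was spread over the later parts, with its highest coverage in the last. Of 388, 365 had H3K27ac, 146 had H3K9me3 and 140 had both. At the 325 listed starts, 301 had H3K27ac and 8 had H3K9me3. H3K9me3 covered 50.3 bp per kb of these genes with their flanks against 18.0 over all genes, and H3K27ac 94.0 against 52.5. With each gene of at least 5000 bp and known strand divided into 10 equal parts from its start (n = 311), H3K27ac covered 51.3% of the first part and 3.40% of the last. H3K9me3 covered 1.29% of the first part and 7.56% of the last, where other genes (n = 12464) had 0.820% and 1.27%. In parts 4 to 9 of the Zfp genes its coverage was 4.05% to 5.63%. H3K9me3 was in the last part of 41 Zfp genes (13.2%) and in the first part of 15 (4.82%). Zfp978, a gene of 267 kb, had 34 H3K9me3 regions covering 78.9 kb of the gene with its flanks. Zfp993, of 479 kb, had 27 regions covering 60.4 kb in the same way. Zfp936, of 77.9 kb, had 15 regions covering 30.9 kb, at 14.7 and 14.3. Near-identical copies within such clusters could share reads, which was not measured. How the authors treated reads with several matches is not given in the sources used here.

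**Figure D4:**
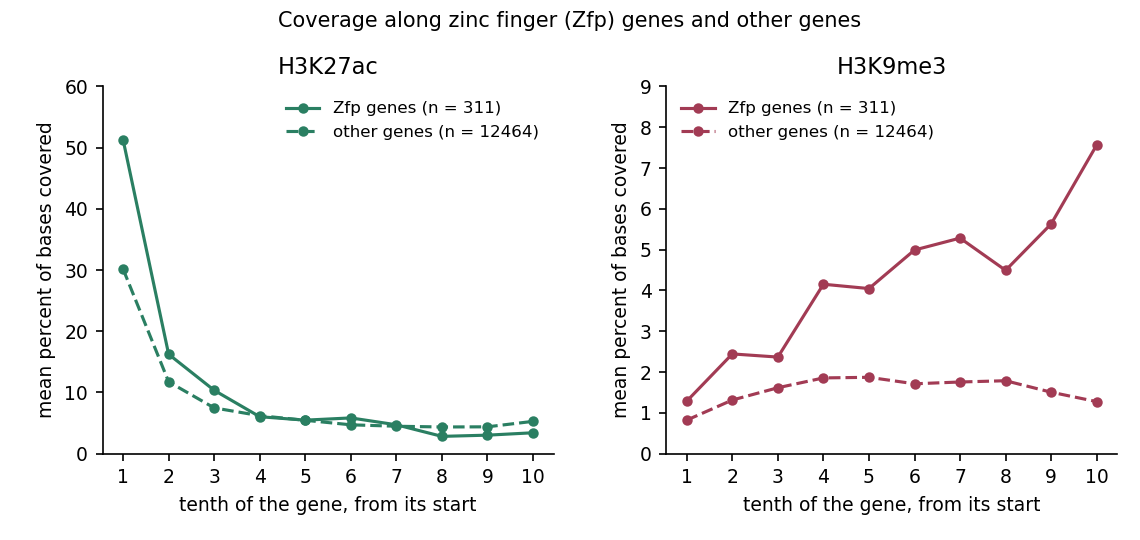
The mean percent of bases covered is plotted for each of 10 equal parts of a gene from its start, for Zfp genes (solid, n = 311) and other genes (dashed, n = 12464), with H3K27ac on the left and H3K9me3 on the right on separate scales. H3K27ac is highest in the first part of both, and H3K9me3 reaches 7.56% in the last part of Zfp genes.

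The bases shared by the marks were few beside those of either mark. Of the H3K27ac regions, 5766 (9.48%) shared at least 1 bp with an H3K9me3 region, and of the H3K9me3 regions 5744 (11.3%) with an H3K27ac region. H3K9me3 lay over 4.14% of H3K27ac bases and over 3.53% of the length. In the 4 pairs of 1 library per mark, the share of H3K27ac peaks was 7.65% to 9.07% and that of H3K9me3 peaks 7.98% to 10.5%. The 6391 shared stretches had a median length of 422 bp, and 18.9% held a peak summit of all 4 libraries. H3K27ac regions with both marks lay within 1000 bp of a gene start in 3.65% of cases, against 28.2% for H3K27ac alone, and more than 50000 bp from any gene in 40.7% against 9.54%. Of the H3K9me3 regions without H3K27ac, 44.6% lay that far out.

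The peak files and the authors' region table gave different pictures of these regions. In the peak files the highest pileup, the number of fragments at the summit, had medians of 39 and 42 in replicates 1 and 2 at H3K27ac regions with both marks, against 38 and 39 at H3K27ac alone. In the region table, taking the entry with most reads over a region, the median was 20 and 27 reads with both marks, against 130 and 150 alone. At 1 read in at least 1 of the libraries lay 24.0% of H3K27ac regions with both marks and 1.28% alone. For H3K9me3 the medians were 26 and 30 reads with both marks and 61 and 71 alone, with 31.0% and 12.9% at 1 read. Of H3K27ac regions with both marks over 50000 bp from any gene, 53.6% had under 10 reads in at least 1 library. The share was 33.7% for those within 2500 bp of a gene, and 8.1% for H3K27ac alone over 50000 bp away. The distances to genes given above were not repeated with a minimum of reads. Whether the table's values had input reads subtracted is not given in the sources used here. All of its values were whole multiples of the lowest within a tolerance of 1e-06. A value of 1 read is thus the lowest value of the table and was not shown to be a single fragment.

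With at least 10 reads required in both libraries, 4.54% of H3K27ac regions and 6.16% of H3K9me3 regions overlapped the other mark. H3K9me3 then lay over 2.31% of H3K27ac bases and 3.05% of the length, so the share of bases passed from above to below that of the length. It was already below with at least 2 reads (2.80% against 3.21%). This minimum was chosen after the values were seen. With at least 10 reads, both marks were at 16.6% of genes in place of 18.9%.

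**Figure D5:**
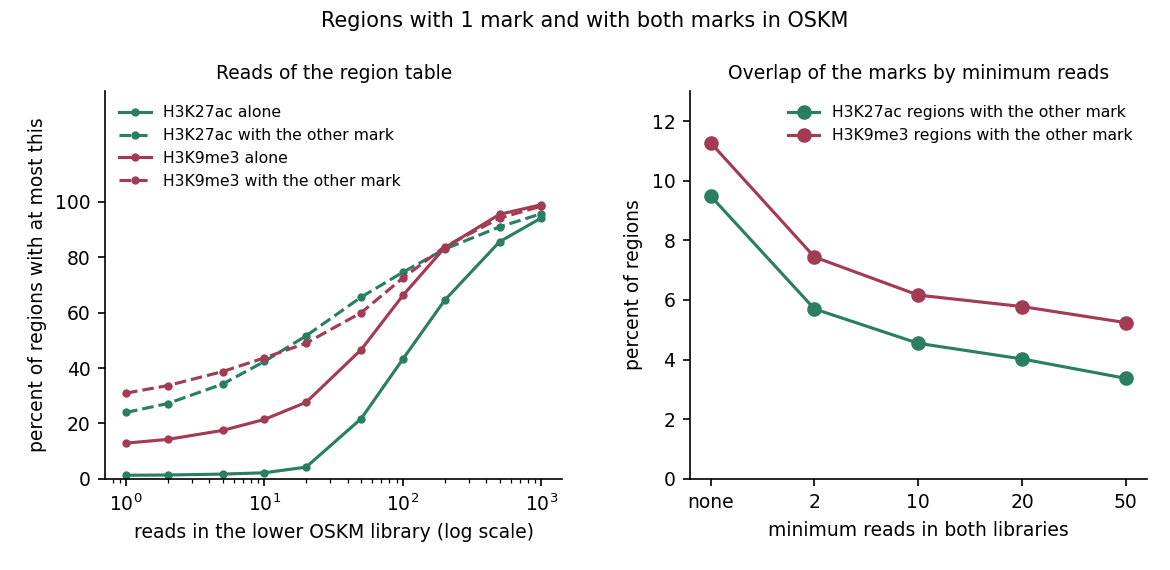
On the left, lines give the percent of regions with at most a number of reads (log scale) in the lower of the 2 OSKM libraries, for regions of each mark alone (solid) and with the other mark (dashed). On the right, points give the percent of regions that overlap the other mark by the minimum number of reads required, from 9.48% and 11.3% without a minimum to 3.37% and 5.24% at 50 reads.

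In some overlapping pairs, both regions had many reads. Fold enrichments and reads here are those of the whole regions, and reads within the shared bases were not measured. In Pcmtd1, a methyltransferase-like gene, a shared stretch of 4821 bp (chr1:7125299-7130119) had H3K27ac at 20.6 and 16.1 with 992 and 1362 reads, and H3K9me3 at 16.99 and 11.3 with 2931 and 3597 reads. At Sult2a3, a sulfotransferase, 4587 bp (chr7:14117281-14121867) had H3K27ac at 14.5 and 17.02 with 1323 and 1433 reads, and H3K9me3 at 11.1 and 12.8 with 777 and 890 reads. The stretch lay 616 bp from a listed gene start. At Prr14, 734 bp (chr7:127469363-127470096) joined an H3K27ac region with 1253 and 1636 reads to an H3K9me3 region with 908 and 1152. The regions that met at Etl4, at Ccdc138, at Armh3 and nearest to Ttf1 had at least 566 reads in every library. By contrast the H3K27ac region at Tex21, which had fold enrichments of 10.7 and 10.4 for H3K27ac, was at 1 read in both H3K27ac libraries. These came from the 10 stretches whose lowest fold enrichment over the marks was highest; those nearest to Gm10634 and Gm52787 were the others.

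The other lines are given for scale, with 1 value each and no test. Both marks were at 2.97% of H3K27ac and 4.50% of H3K9me3 regions in C2, and at 4.46% and 9.47% in C3, against 9.48% and 11.3% in OSKM. Of the 6391 shared stretches of OSKM, 19.6% carried both marks in C2 and 30.2% in C3. In C2, 33.5% carried H3K27ac alone, 23.1% H3K9me3 alone and 23.7% neither, and in C3 57.5%, 7.76% and 4.62%. The number of H3K9me3 regions was 34205 in C2, 32862 in C3 and 50946 in OSKM. In C2 and C3, 42.7% to 95.0% of the peaks of a library were overlapped by the other replicate, against 73.7% to 83.4% in OSKM. The lowest values were in C3 H3K9me3 replicate 1 (42.7%) and C2 H3K27ac replicate 1 (47.6%). C3 was compared with other inputs, of 46180932 and 47736144 tags. The part of these differences in the shares was not tested. The difference between marks in the share of peaks within 2500 bp of a gene was 41.8 points in C2 and 39.3 in C3, beside 38.8 in OSKM.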

How the data were processed

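Peak files and region tables were used as deposited by the authors. The submitters' processing notes name the build mm10 and the tools DiffBind 1.16.2, Bowtie2 2.2.5, CASAVA 1.8.2 and SAMtools 1.3. Per the file headers, MACS 2.1.0.20150731 called peaks in each library against 1 input at a q-value of 0.01. The peak files deposited by the authors give pileup as signal, significance as -log10 p-value and -log10 q-value, and fold enrichment as a ratio over local background. The region tables deposited by the authors give signal as normalized reads per library, and here each value was divided by the lowest of its library.

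Overlapping peaks of the 2 libraries of a mark were merged, and regions with a peak in both were kept. Genes came from RefSeq on GRCm38.p6, the assembly called mm10. Windows were 2500 bp around gene extents and 1000 bp around starts, which were given for 18 chromosomes (not for chromosome 18). Chromosome length, 2461 Mb in all, was taken to the last gene or peak. Library values were compared by exact permutation tests, two-sided, and regions were described without tests. The 24 lists hold 13 sets of named genes and 11 families by symbol. The members and lists were chosen with earlier results of these data known. Genes were named as list members, as the 8 strongest and 6 widest regions per mark, the 10 strongest shared stretches, the 5 windows with most of each mark and the 3 family members with most H3K9me3. Protein sequences were not analysed here. Interval functions passed 4 of 4 checks on simulated peaks against bedtools 2.31.1. Other steps used Python 3.11.15, pandas 2.3.3, numpy 2.4.6 and matplotlib 3.10.9. No interval for counting error was computed, since reads carried no molecular identifiers. Alternatives were a stricter q-value, other joins, overlaps and gene windows, all annotated genes, no chromosome 8, each library left out, a replicate block and a minimum of reads.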

Additional observations from a re-analysis of the deposited data

How the results depend on the processing

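The direction of the differences in median peak width and in distance near and far held with a stricter q-value, without chromosome 8, with each library left out and, for distance, with all annotated genes; for width, joining and a minimum of reads were not run, and over regions the order of the medians is the reverse, as given in the report. Replicate numbers are shared between marks, but nothing labels them as paired. With the replicate block the differences were 107 bp, 38.8 points and -32.2 points, each with an exact sign-flip p = 0.5, the smallest 2 pairs allow. Joining peaks up to 1000 bp apart gave 38176 H3K27ac regions, and leaving out H3K9me3 replicate 2 or replicate 1 gave 79650 to 81500 H3K9me3 regions, since a peak in 1 library then sufficed. The cause of the other shifts was not tested. For H3K27ac regions with H3K9me3, the share was 8.73% at a -log10 q-value of at least 5, 14.9% after joining, 5.85% with an overlap of at least 50% of the shorter region, 7.78% to 10.3% with each library left out, and 5.70%, 4.54% and 4.02% with at least 2, 10 and 20 reads. For H3K9me3 regions with H3K27ac, it was 14.0% after joining, 6.46% with the 50% overlap, 7.82% to 12.8% with each library left out, and 7.44%, 6.16% and 5.78% by reads. Genes with H3K27ac alone were 44.8% with a window of 10000 bp, 33.8% of all annotated genes, 50.7% with at least 10 reads and 47.3% to 52.1% with each library left out. Genes with H3K9me3 alone were 5.30% with a window of 0 bp, 11.02% with 10000 bp, 9.68% of all annotated genes and 5.66% to 7.55% with each library left out. Genes with both marks were 17.03% at the stricter q-value, 16.2% and 29.2% with windows of 0 and 10000 bp, 12.02% of all annotated genes, 16.6% with at least 10 reads and 19.4% to 21.3% with each library left out. Of the 24 lists, 5 to 7 had more genes with H3K9me3 than with H3K27ac under the alternatives run, against 6. Collagens left them without H3K27ac replicate 1, and clustered protocadherins joined them at 10000 bp and at 10 reads. The settings by reads were added after the data were seen. With 2 libraries per mark, an exact test cannot go below the p = 0.333 given in the report.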

Other observations

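Some wide regions lay on a very high local background. The H3K9me3 region of 26987 bp at chr9:3011390-3038376 had a fold enrichment of 1.51 and 1.52 over a local background of 260 and 255 fragments, where the median region had 3.92 and 3.88. It held 50694 and 66854 reads and lay 296855 bp from Alkbh8, the nearest protein-coding gene. A local background above 50 in both libraries was found at 46 H3K9me3 regions and 37 H3K27ac regions.

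The 46 promoters under both marks had a CpG observed over expected ratio of 0.51, between the values for H3K27ac alone (0.76) and H3K9me3 alone (0.30), and CACGTG was in 15.2% of them. These are descriptions of few promoters without a test.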
